A study of Mus musculus with 54 samples.

Results

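Kidneys of 18-week-old male Balb/c mice were profiled both as freshly captured single cells after dissociation on ice and as bulk RNA of the intact organ, and the comparison asks which genes and which cell types are under-represented once a kidney has been taken apart and passed through a microfluidic device. It rests on 6 of the 54 libraries of the series: 3 cold-dissociated, fresh single-cell libraries, in which the UMIs (unique molecular identifiers, one per captured transcript) of all barcodes of a library were summed, and 3 bulk libraries of intact kidney. Both groups were untreated males of one litter. The cells were prepared by mincing and by digestion on ice with a cold-active protease of Bacillus licheniformis, then strained, washed by centrifugation and loaded at once on 10x Chromium (v2 chemistry, which reads the 3′ ends of polyadenylated RNA), whereas the intact kidneys were flash frozen whole and sequenced along the full transcript after ribosomal RNA depletion. Each library of a group came from another mouse. Replicate numbers follow the order of deposit and pair no cell library with a bulk library. Dissociation, capture, the authors' filtering of cells, chemistry and counting therefore change together between the groups. Their parts in a difference cannot be told apart from these 6 libraries alone.

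Other libraries were set beside them for that reason. In male C57BL/6J mice of 19 weeks (labelled AFAPIL.1DEL C57BL/6J, one litter, used in no experimental procedure), cold cells were compared with rRNA-depleted bulk RNA of the same kind of cold suspension. That contrast holds capture, library type and the authors' filtering of cells but no dissociation (3 against 3). The study states that its cells and bulk RNA came from the same dissociated kidneys, but the groups were compared without pairing. In untreated wild-type Balb/c females of 15 weeks that had been breeders, cold cells (10x v3 chemistry) were compared with poly(A)-selected bulk RNA of intact kidney (3 against 3). In the same females, bulk RNA of the cold suspension was compared with bulk RNA of intact kidney, so that contrast holds dissociation with its straining and washing, and the freezing of the intact organ, but neither capture nor a change of library type (3 against 3; the intact libraries are shared with the preceding contrast). Strain, sex, age, chemistry and the read length of the bulk libraries differ between these experiments. All mice were culled by cervical dislocation as part of other work.

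The nephron begins at the glomerulus, where podocytes wrap a fenestrated capillary tuft held by mesangial cells. It continues as the proximal tubule, whose S1 and S2 segments in the cortex and S3 segment towards the medulla recover most of the filtrate, then as the thin and thick limbs of the loop of Henle, the distal convoluted and connecting tubules, and the collecting duct with its principal and intercalated cells. Between the tubules lie capillaries, mural cells (smooth muscle and pericytes), fibroblasts with their collagen, and resident macrophages. A dissociation protocol must cut basement membrane and matrix to release any of these, and each cell type leaves the tissue, survives and enters a droplet with its own efficiency.

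The cell libraries held 1644357, 2573720 and 1362810 UMIs in 2467, 3109 and 3577 barcodes, with medians of 538, 688 and 343 UMIs per barcode, and the intact kidney libraries held 7879117, 2326998 and 4888491 reads counted in genes. Pairs of cell libraries shared 10 to 18 barcodes. Mitochondrial genes took 7.43% to 9.50% of the intact kidney reads and were not listed for the male cells, so they stayed out of all totals. The tables shared 15546 other genes, of which 11630 had enough counts to be tested. Values below are counts per 1000000 (CPM) over the tested genes, corrected with the TMM scaling factors of edgeR, and fold changes are log2 of cells over intact kidney. A gene was called lower or higher at an adjusted p under 0.05 (edgeR quasi-likelihood test, Benjamini-Hochberg) together with a log2 fold change of at least 1 in size. The 3 libraries of a group measure the spread between mice of one litter.

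A value of 0 in a male cell library has a particular meaning. Of the 16524 genes listed for these cells, 5145 (31.1%) were at 0 in all 3 libraries and 9560 (57.9%) had UMIs in all 3, and only 1.23% to 1.7% of the genes with UMIs in a library were seen in under 10 barcodes: a gene detected in fewer barcodes than that is mostly listed at 0. A 0 was therefore read as up to 9 UMIs, which is 6.56, 4.42 and 7.82 CPM in replicates 1, 2 and 3. Where all 3 cell libraries were at 0, a fold against this floor is given ("at least") in place of the fitted one.

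In the whole contrast, 3617 of 11630 genes were lower in the cell sums (31.1% of the genes tested) and 2695 were higher (23.2%). The 3 cell values lay below all 3 bulk values for 5314 genes and above them for 3649, called or not, so that groups without overlap are common in this contrast. Of the lower genes, 801 (22.1%) were at 0 in all 3 cell libraries and 2345 (64.8%) had UMIs in all 3. All 801 genes tested that were at 0 in all 3 cell libraries were called lower. Such a gene passes the count filter only through the intact kidney, so the filter sets the direction of its call. Lower genes made up 57.3% of the calls, 73.0% with totals alone in place of TMM factors, and 46.7% when the whole table was fitted again with 9 UMIs in place of each 0. The median log2 fold change of all genes was -0.37, against -0.93 with totals alone, and medians of gene groups are to be read relative to it. Elsewhere a value with 9 UMIs in place of zeros is the fold of that gene alone, with the scaling factors kept, and the median of all genes was then -0.16.

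The folds followed transcript length. Among genes in the shortest quartile of exonic lengths (183 to 2891 bases) 58.0% were higher in the cells and 7.15% lower, with a median log2 fold change of 1.39. In the longest quartile (7103 to 123179 bases) 3.6% were higher and 56.6% lower, with a median of -1.23. Over 9488 genes with UMIs in all 3 cell libraries the Spearman correlation of log2 fold change with exonic length was -0.63, across genes that share the same 6 libraries. A UMI counts a transcript once whatever its length, while a full-length library gives a long transcript more reads. Values computed with the bulk counts divided by exonic length, called length-divided below, are therefore given for most lists and for the named list members whose call they change. Length-divided, 2879 of 11571 genes were lower and 2177 higher.

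**Figure D1:**
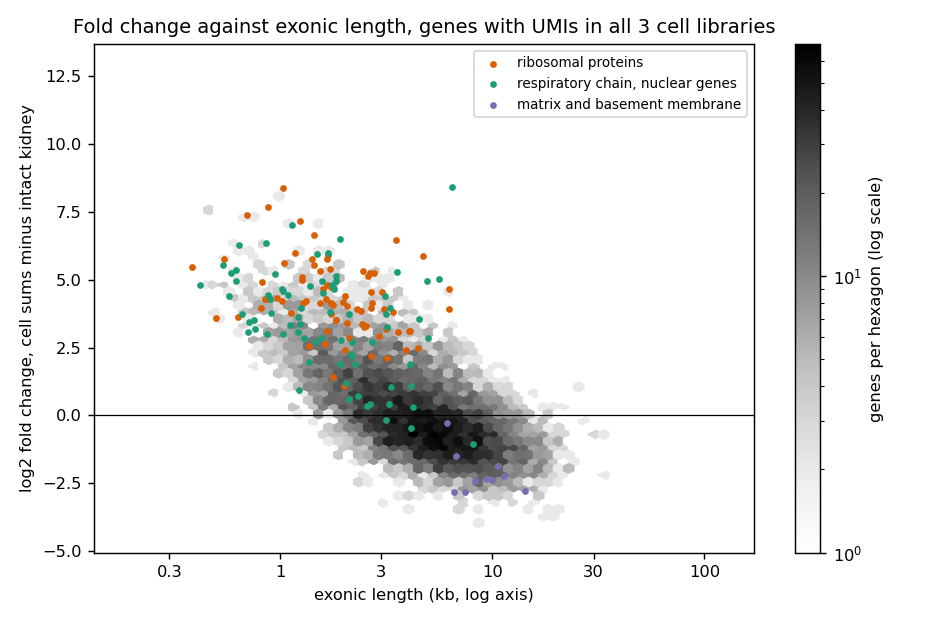
Log2 fold change of cell sums over intact kidney (vertical axis) against exonic length in kilobases (horizontal log axis) for genes with UMIs in all 3 male cell libraries. Shading gives the number of genes per hexagon and coloured points mark ribosomal protein, respiratory chain and matrix genes. The cloud falls from left to right (Spearman rho -0.63), the ribosomal and respiratory chain genes lie at its short, high end and the matrix genes at its long, low end.

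Ribosomal protein and respiratory chain genes were higher in the cell sums. All 78 ribosomal protein genes tested were higher, with a median log2 fold change of 4.16 and a range from 1.07 for Rpl4, the most abundant of them in intact kidney, to 8.37 for Rpl24. Together they took 96650, 103500 and 86540 CPM of the cell sums and 4740, 6367 and 4792 CPM of the intact kidney, ranges that lie far apart. Of 76 nuclear genes of the respiratory chain, which makes ATP in the mitochondrion, 66 were higher and 1 was lower, with a median of 3.58. The extremes were Atp5l (8.40), a small ATP synthase subunit, and Ndufs1 (-1.06), a core subunit of complex I, and the most abundant in intact kidney was Atp5b (0.32, not called), the catalytic beta subunit. The C57BL/6J contrast, which has no dissociation step between its arms, gave medians of 3.95 and 3.97 for the same lists, and the female suspension against intact kidney gave 0.06 and 0.08. Length-divided, 73 of 78 and 52 of 75 were higher, Rpl4 (-0.13) and Ndufs1 (-0.25) had no call, and the medians were 2.84 and 1.73.

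Several of the most extreme higher genes have near-copies or overlap other genes, so their counts are uncertain. Of the 10 largest among genes with at least 10 CPM in the cells, Rps18-ps3, Gm10709 (12.82), Gm9493 and Gm10020 are processed pseudogenes in GENCODE M21, Gm10053, Gm10116 and Gm10076 are predicted genes, and H2-Ke6 shares 86.4% of its exons with another gene on the same strand. Over the whole table, 23 of 25 pseudogenes and 27 of 46 genes that share at least 50% of their exonic bases were higher. Of the 100 largest folds, 10 were of pseudogenes, 15 of genes that share any exonic base with another gene on the same strand, and 75 of neither kind. The other 2 of the leading 10 were Usp50 (11.5) and Wfdc17, a small secreted protein of macrophages, at 170.4, 102 and 71.3 CPM in cells and 0.232, 0.394 and 0.189 CPM in intact kidney.

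Of the 10 most abundant genes of the intact kidney 3 were higher in the cells and 7 lower. These genes were picked by their intact level, and calls varied with that level over all genes tested. In the highest quartile of intact CPM 47.8% were lower and 10.7% higher, and in the lowest quartile 20.6% and 41.0%. Kap, the androgen-regulated protein of the proximal tubule, and Gpx3, the secreted glutathione peroxidase made there, were higher in the cells at log2 fold changes of 1.65 and 1.88. Length-divided, Kap turned to the lower side (-1.05, called) and Gpx3 had no call (0.53). The lower ones included Lrp2 (-3.45), Atp11a, a phospholipid flippase (-3.82), Ndrg1 (-1.36; length-divided -0.85, not called), the proximal acyl-CoA synthetase gene Acsm2 (-1.31; length-divided -0.62, not called), the fatty acid transporter Slc27a2 (-1.09) and the phosphate transporter Slc34a1 (-1.07). The nuclear noncoding RNA Malat1 was at 46040, 56640 and 74120 CPM in cells and 17540, 22170 and 20340 CPM in intact kidney and was higher (log2 fold change 1.56 ± 0.27 (SE), adjusted p = 0.000863).

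Podocyte genes were higher in the cell sums. In sums and in bulk RNA alike, fewer cells of a type and less RNA per cell cannot be told apart. Of 12 podocyte markers 9 were called higher and 0 lower (background 23.2% higher), with a median log2 fold change of 2.18. Nphs1, which encodes nephrin of the slit diaphragm (chromosome 7, 30458315 to 30487223, GRCm38), had 57.5, 90.4 and 103 CPM in the cells and 23.1, 21.2 and 19.8 CPM in intact kidney (log2 fold change 1.96 ± 0.22 (SE), adjusted p = 6.7e-05). Every cell library was above every bulk library. Wt1, the transcription factor that podocytes need, differed by 3.05, Cdkn1c (a cell cycle inhibitor of mature podocytes) by 4.20 and Clic3, an intracellular chloride channel protein and the highest of the list, by 6.85. Podxl, the charged coat protein of the foot process and the most abundant of the list in intact kidney, had 313, 233 and 417 CPM against 161, 135 and 176 CPM (log2 fold change 1.02 ± 0.21 (SE), adjusted p = 0.00238). Its groups did not overlap, but the call was lost without cell replicate 3 (0.77) and without bulk replicate 2 (0.91). The lowest member, Plce1, stood at -0.46 (adjusted p = 0.0951, edgeR), and the summed list gave 1612, 1659 and 1894 CPM against 426, 361 and 440.0 CPM. Length-divided, all 12 were higher (median 2.13), Plce1 among them at 1.34.

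Podocyte genes were compared with the same genes in the other experiments. In C57BL/6J cells against their own suspension (backgrounds 27.4% lower and 27.5% higher of 12644 genes) 6 of 12 were higher and 3 lower, with a median of 0.99. In female cells against intact kidney (backgrounds 21% lower and 23.7% higher of 13989 genes) 7 of 12 were higher and 0 lower, with a median of 1.12. The female suspension against intact kidney (backgrounds 3.51% lower and 1.83% higher of 16516 genes) had 0 of 12 in either direction and a median of 0.40. The difference between the male Balb/c and the C57BL/6J contrasts was tested as an interaction term in edgeR, which called 8.42% of 12541 genes lower and 3.37% higher, and 7 of 12 podocyte genes were on the higher side. Against the female Balb/c contrast the same term called 21.8% of 13312 genes lower and 4.97% higher, and 7 of 12 podocyte genes were higher and 1 lower. Against C57BL/6J Podxl differed by 2.26 ± 0.30, adjusted p = 0.000276 and Ptpro, a receptor phosphatase of the foot process, by 2.67 ± 0.32, adjusted p = 0.000139. Strain, age, the kind of bulk sample, bulk read length and batch differ along with the C57BL/6J term and cannot be told apart.

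**Figure D2:**
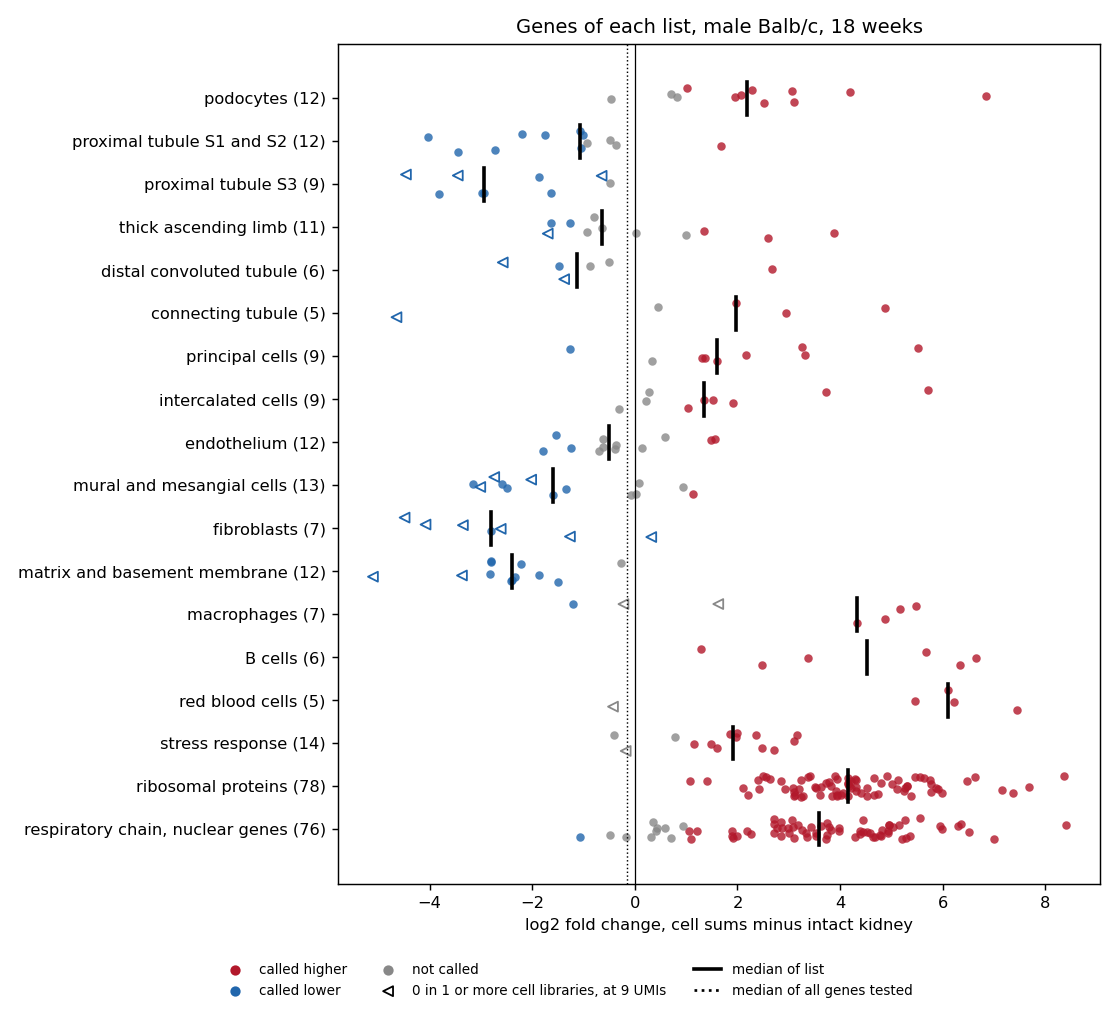
Log2 fold change of cell sums over intact kidney (horizontal axis) of the members of 18 gene lists (vertical axis) in male Balb/c. Each point is a gene, triangles are genes at 0 in at least 1 cell library with 9 UMIs in place of the 0, bars are list medians and the dotted line is the median of all genes tested (-0.16). Ribosomal, respiratory chain, podocyte and blood cell lists lie to the right, S3, fibroblast and matrix lists to the left.

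Transporter genes of the S1 and S2 segments were mostly lower. Of 12 genes 8 were lower and 1 was higher, with a median of -1.06, and the summed list had 5040, 6076 and 6748 CPM in cells against 17370, 15990 and 17590 CPM in intact kidney. Lrp2 (megalin, the endocytic receptor of the brush border; chromosome 2, 69424340 to 69586065) led the list in intact kidney with 7526, 7807 and 7901 CPM and had 563, 723 and 841 CPM in cells (log2 fold change -3.45 ± 0.20 (SE), adjusted p = 1.95e-06). Its partner Cubn, cubilin, was the lowest (-4.02). These are long transcripts, and with the bulk counts divided by length their folds were -1.6 and -2.33, both still called lower. Slc34a1, the main phosphate transporter of the segment, had 1239, 1431 and 1611 CPM against 3162, 2856 and 2984 CPM (log2 fold change -1.07 ± 0.15 (SE), adjusted p = 0.000266), with no overlap between the groups. The bicarbonate cotransporter Slc4a4 was lower (-2.20; -0.97 and not called with bulk counts divided by length), as was the lactate transporter Slc5a12 (-2.72). The glucose transporter Slc5a2 (-1.01) and the organic anion transporter Slc22a8 (-1.05) stood at the threshold, as did Slc34a1, and each lost its call without cell replicate 1 (-0.88, -0.83 and -0.96). Slc5a2 also lost it without cell replicate 2 (-0.94) or bulk replicate 2 (-0.90), and Slc22a8 without bulk replicate 3 (-0.99). Gatm, which makes the creatine precursor, was the 1 higher gene (1.68). The length-divided counts for the list were also 8 lower and 1 higher (median -1.30).

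In the C57BL/6J contrast, with no dissociation in it, 7 of 12 S1 and S2 genes were lower and 1 higher with a median of -1.29, and the interaction with C57BL/6J called 0 of 12 in either direction. The interaction with the female contrast called 6 of 12 lower and 0 higher (median -0.98), against 21.8% and 4.97% over all genes. Lrp2 differed by -3.53 in C57BL/6J and by -3.45 in Balb/c males, an interaction of 0.14 ± 0.22, adjusted p = 0.703. Female cells had 3 of 12 lower, near the 21% over all genes there, and 0 higher (median -0.52). The female suspension had 0 of 12 called, with a median of 0.35 and Lrp2 at -0.98 (adjusted p = 0.000125, edgeR).

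Most genes of the S3 segment were lower in the cell sums. Of 10 markers 9 could be tested and 8 of the 9 were lower, with a median of -2.99 (-2.94 with 9 UMIs in place of zeros). The count filter sets the calls of the 2 that were at 0 in all 3 cell libraries. A fit over only genes with UMIs in all 3 called 5 lower and 0 higher, with a median of -2.41. Slc22a7, an organic anion transporter of S3 (chromosome 17, 46432183 to 46438457), had 15.3, 16.7 and 24.3 CPM in cells and 119, 189.7 and 133 CPM in intact kidney (log2 fold change -2.99 ± 0.25 (SE), adjusted p = 1.54e-05). Mep1b, the beta subunit of the brush border protease meprin, had 9.47, 13.3 and 11.3 CPM against 172, 161 and 156 CPM (log2 fold change -3.82 ± 0.16 (SE), adjusted p = 4.1e-07). All cell libraries lay below all bulk libraries for both genes. Cyp7b1, an oxysterol hydroxylase that is the most extreme of the list, had 8.74, 6.39 and 0 CPM against 171, 137 and 198 CPM, a log2 fold change of -4.46 with 9 UMIs in place of the 0. Slc22a19 was at 0 in all 3 cell libraries against 76.6, 55.1 and 73.7 CPM, at least 10.9-fold lower. Slc7a13, the S3 cystine transporter that led the list in intact kidney, had 194, 200.0 and 192 CPM against 604, 595 and 620.3 CPM (log2 fold change -1.63 ± 0.11 (SE), adjusted p = 3.55e-06). Slco1a6 was the member not called, at -0.49 (adjusted p = 0.00823, edgeR). Length-divided, 8 of 9 were lower as well (median -4.12).

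The S3 list also had the most members of any tubular list lower in dissociated tissue itself. In the female suspension against intact kidney, where both arms are bulk RNA, 8 of 10 S3 genes were lower (background 3.51%) with a median of -3.04. Slc22a7 stood at -3.41 ± 0.12, adjusted p = 1.7e-07 and Mep1b at -3.44 ± 0.10, adjusted p = 5.22e-08 there. Female cells had 8 of 9 lower and 1 higher (median -3.33), whereas C57BL/6J cells against their own suspension had 4 of 9 lower (median -0.90), with Slc22a7 at -0.07 and Mep1b at -1.59. The interaction with C57BL/6J was -2.85 ± 0.48, adjusted p = 0.0012 for Slc22a7 and -2.17 ± 0.50, adjusted p = 0.00787 for Mep1b. Over the list that term called 4 of 9 lower (8.42% over all genes). The term with the female contrast called 2 of 8 lower and 1 higher, near its shares over all genes (21.8% and 4.97%). Of the C57BL/6J calls Slc22a19 was at 0 in all male cell libraries, where the term has no size (at the floor -3.45, against -2.94 in C57BL/6J), and over genes with UMIs in all cell libraries 2 of 6 were lower (median -0.80). Not every member followed: Cyp7b1 was at 0.46 and Slc7a13 at -0.54 in the female suspension, neither called, and Slco1a6 at -3.19, called.

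**Figure D3:**
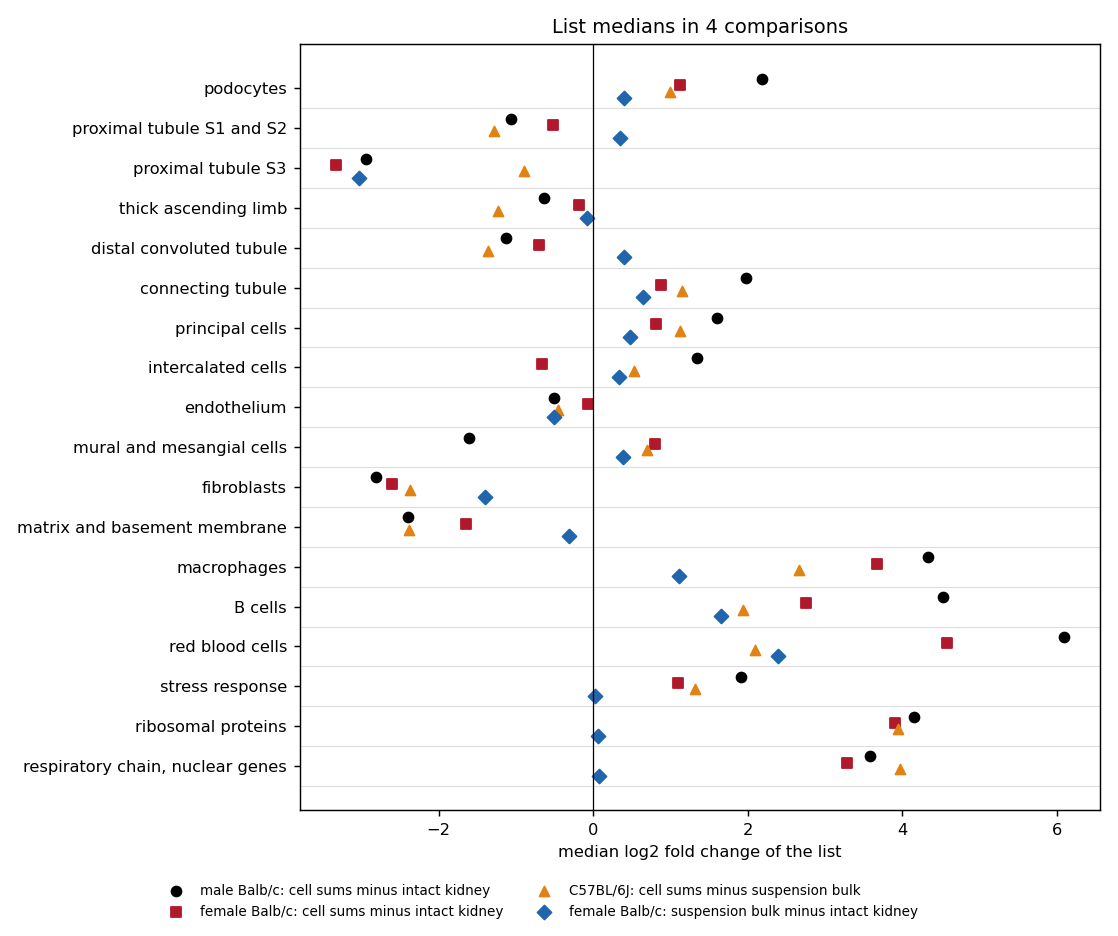
Median log2 fold change (horizontal axis) of gene lists (vertical axis) in 4 contrasts: male Balb/c cells against intact kidney (with 9 UMIs in place of zeros), female Balb/c cells against intact kidney, C57BL/6J cells against their suspension, and female suspension against intact kidney. The S3 and fibroblast lists lie left of 0 in the suspension contrast and the S1 and S2 list does not, while the ribosomal and respiratory lists are far right in the contrasts that involve cells and near 0 in the suspension.

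The loop of Henle and the distal tubule gave mixed lists. Of 11 thick ascending limb genes 3 were lower and 3 higher, near the shares over all genes tested (31.1% and 23.2%), and the list median was -0.64. Umod, uromodulin, the secreted protein that marks the segment and its most abundant transcript here, had 1200, 1375 and 1304 CPM in cells and 1782, 2237 and 2017 CPM in intact kidney (log2 fold change -0.64 ± 0.14 (SE), adjusted p = 0.00347), below the fold threshold although the groups did not overlap. The growth factor gene Egf was lower (-1.27; 0.01 with bulk counts divided by length), Ptger3, a prostaglandin receptor, was lower (-1.63) and Kcnj1, the apical potassium channel, was level (0.02, adjusted p = 0.904, edgeR). Tmem207 had 0, 6.39 and 0 CPM against 19.1, 22 and 26.2 CPM and Wfdc15b, a short secreted inhibitor, was the highest (3.88). In C57BL/6J 7 of 11 were lower and 3 higher, with a median of -1.23 and Umod at -1.55, and the interaction for Umod was 0.97 ± 0.17, adjusted p = 0.00147, just under the fold threshold. The female suspension had 0 of 11 called (median -0.08). Length-divided, 3 of 11 genes were lower and none was higher: Wfdc15b stood at 0.87 without a call, and Umod was called lower at -1.38.

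Of 5 thin limb genes tested 2 were lower and 1 higher, near the shares over all genes tested (31.1% and 23.2%). The median changed sign with the treatment of zeros (-0.98 and 0.43). Slc14a2, the urea transporter of the inner medulla, was at 0 in all 3 cell libraries against 13.8, 13.8 and 17.5 CPM, at least 2.40-fold lower. Fst, follistatin, was the highest (1.08 with 9 UMIs in place of zeros, not called), and Bst1, a cell surface ADP-ribosyl cyclase, was the 1 called higher (1.04; length-divided 0.57, not called). Of 6 distal convoluted tubule genes 3 were lower and 1 higher: Slc12a3, the thiazide-sensitive cotransporter, had 275, 303 and 479 CPM against 523, 460.1 and 516 CPM (log2 fold change -0.51 ± 0.21 (SE), adjusted p = 0.0518), with overlapping groups, while Pvalb, parvalbumin, was higher (2.68; length-divided 0.53, not called). Klhl3, an adaptor of the ubiquitin ligase that acts on WNK kinases, was at 0 in all 3 cell libraries against 35.1, 41.7 and 35.1 CPM, at least 5.95-fold lower. The count filter sets the calls of Klhl3 and Slc14a2. In a fit over genes with UMIs in all 3 cell libraries, 1 distal convoluted tubule gene was lower and 1 higher (median -0.70). In the connecting tubule 3 of 5 genes were higher, S100g (a small calcium-binding protein, 4.87), Klk1 (kallikrein, 2.95; length-divided 0.86, not called) and Calb1 (calbindin, 1.97). The sodium-calcium exchanger Slc8a1 was lower, with 0, 5.90 and 0 CPM against 156, 181 and 169.7 CPM (-4.64 with 9 UMIs in place of zeros), and it was at -5.02 in C57BL/6J. The length-divided calls were 2 lower and 0 higher of 5 thin limb genes, 4 lower and 0 higher of 6 distal convoluted tubule genes, and 1 lower and 2 higher of 5 connecting tubule genes. Without cell replicate 2 the thin limb median was -0.25, and Bst1 lost its call without cell replicate 2 (0.73), bulk replicate 1 (0.99) or bulk replicate 3 (0.999), and with no scaling factors (0.48).

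Most collecting duct genes of the lists were higher in the cell sums, but fewer were when bulk counts were divided by length. Of 9 principal cell genes 7 were higher and 1 was lower (median 1.6), and of 9 intercalated cell genes 6 were higher and 0 lower (median 1.35). Aqp2, the vasopressin-regulated water channel and the most abundant principal cell gene of the list (chromosome 15, 99579055 to 99584547), had 1769, 1543 and 785 CPM in cells and 128, 162 and 141 CPM in intact kidney (log2 fold change 3.26 ± 0.30 (SE), adjusted p = 2.45e-05). Cell replicate 3 was the lowest of the cell libraries and still above all bulk libraries. Fxyd4, a small regulator of the sodium pump, was the highest (5.52), and the basolateral water channel Aqp4, the lowest (-1.26), was also lower in the female suspension (-1.89, adjusted p = 2.63e-05, edgeR). Among intercalated genes the proton pump subunit Atp6v1g3 led (5.71) and the exchanger Slc4a9 was the lowest (-0.30, adjusted p = 0.413), while pendrin, Slc26a4, the most abundant of the list in intact kidney, stood at 0.21 (adjusted p = 0.349). The female suspension had 1 of 9 principal cell genes lower and 0 of 9 intercalated cell genes called. Length-divided, 3 of 9 principal cell genes were higher and 0 lower (median 0.84), Aqp4 having no call at -0.82, and 2 of 9 intercalated cell genes were higher and 0 lower (median 0.58). Over all genes 2177 of 11571 were higher length-divided, a share near that of the intercalated list. Intercalated cell genes had other calls in the other experiments: in female cells 4 of 9 were lower and 1 higher (median -0.66) and in C57BL/6J 3 were lower and 3 higher (median 0.53). The C57BL/6J counts are near the shares over all genes there (27.4% and 27.5%). The interaction called 8 of 9 of them higher against females and 3 of 9 against C57BL/6J. Principal cell genes were higher in 4 and lower in 1 of 9 cases in female cells and higher in 5 and lower in 0 in C57BL/6J, with 4 and 3 of 9 on the higher side of the interactions.

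Endothelial genes split, and the cell libraries disagreed with one another. Of 12 genes 3 were lower and 2 higher, near the shares of 31.1% and 23.2% over all genes tested, with a median of -0.51, and the summed list had 1052, 473 and 342 CPM in cells against 649, 692 and 659 CPM in intact kidney, so that replicate 1 lay above all bulk libraries and replicates 2 and 3 lay below them. Emcn, an endomucin of capillaries and veins, had 200.3, 87.5 and 48.7 CPM against 41.5, 34.6 and 43.4 CPM (log2 fold change 1.48 ± 0.42 (SE), adjusted p = 0.012). The log2 fold change of Emcn was 0.83 without cell replicate 1 and the call was then lost, as it was without bulk replicate 1 or 2. Egfl7, a secreted endothelial factor (1.55), lost its call without cell replicate 1 (0.94) and without bulk replicate 1. The growth factor receptors Kdr (-1.79) and Flt1 (-1.54) and the orphan receptor Tie1 (-1.25) were lower. With bulk counts divided by length Kdr stood at -0.82 and Flt1 at 0.01, neither called. Plvap, the diaphragm protein of fenestrated capillaries, had 178, 71.8 and 29.6 CPM against 79.2, 109.8 and 68.7 CPM (log2 fold change 0.14 ± 0.49 (SE), adjusted p = 0.81), with overlapping groups; it was at 2.37 in C57BL/6J, -1.02 in the female suspension (adjusted p = 4.31e-05, edgeR) and -2.17 ± 0.51, adjusted p = 0.00853 for the interaction. Of the lymphatic list only Prox1 and Flt4 could be tested, both lower, Prox1 at 0 in all 3 cell libraries against 20.2, 17.3 and 29.0 CPM and Flt4 in 2 of them. The count filter sets the call of Prox1. Length-divided, 1 of the 12 endothelial genes was lower and 2 were higher. Over the 12 genes the interaction with C57BL/6J called 1 lower, Plvap, and 0 higher (median -0.36), and that with the female contrast 2 lower. Over all genes these terms called 8.42% and 21.8% lower, so both counts are near or below the shares. Without cell replicate 1 the male list had 5 lower and 0 higher (median -0.78), and without cell replicate 2 its median was -0.32.

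**Figure D4:**
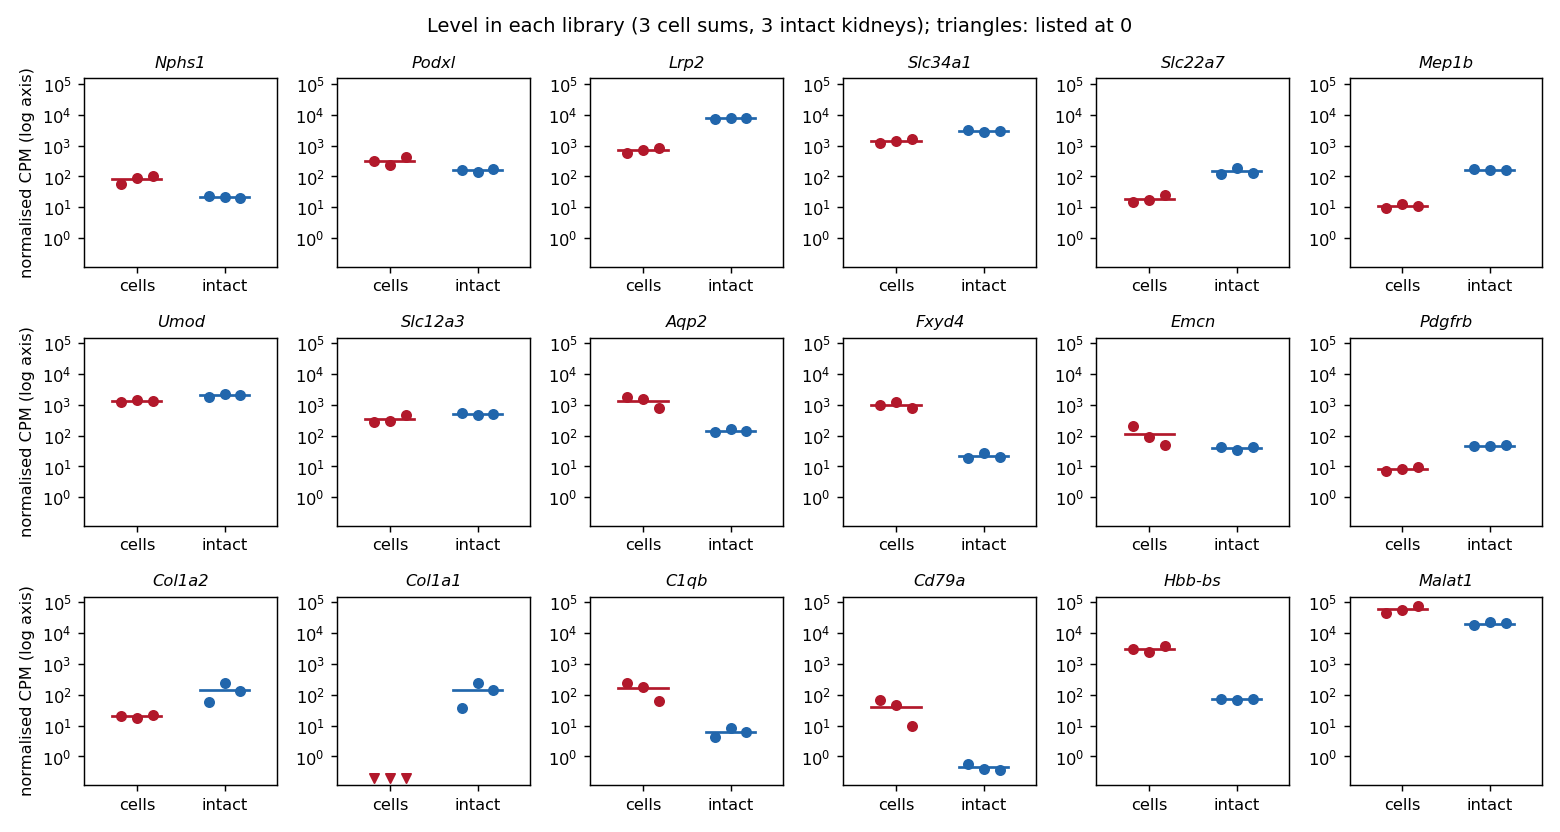
Normalised CPM (log axis) of 18 genes in each library, with the 3 cell sums and the 3 intact kidney libraries of male Balb/c as separate points and bars at the group means. Triangles mark libraries listed at 0. Col1a1 is at 0 in every cell library, Cd79a, Emcn and C1qb differ widely among the cell libraries, and Nphs1, Aqp2, Hbb-bs and Cd79a lie above the intact kidney in all 3.

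Mural and mesangial genes were mostly lower. Of 13 genes tested 8 were lower and 1 higher (median -1.6). Over the 10 with UMIs in all 3 cell libraries the median was -0.71. Pdgfrb, the receptor that marks pericytes and mesangium, had 7.28, 8.35 and 9.56 CPM in cells and 45.1, 47.2 and 48.5 CPM in intact kidney (log2 fold change -2.48 ± 0.18 (SE), adjusted p = 6.14e-06), without overlap. Myh11, the myosin of smooth muscle, had 8.01, 1.47 and 6.95 CPM against 43.7, 44.9 and 43.6 CPM (log2 fold change -3.15 ± 0.36 (SE), adjusted p = 8.55e-05). Cell replicate 2 was the lowest, and the groups did not overlap. The short contractile transcripts Acta2 (0.02, adjusted p = 0.944) and Tagln (-0.08, adjusted p = 0.85) did not differ beyond their spread. Mylk, the kinase that activates smooth muscle myosin and the most abundant of the list in intact kidney, was lower (-1.6; -0.31 and not called with bulk counts divided by length), Des, desmin, was at -2.74 with 9 UMIs in place of a 0, and Gata3, a transcription factor shared with the collecting duct, was the 1 higher gene (1.13; 0.99 and not called without bulk replicate 2). Length-divided, 10 of 13 were lower and 1 higher, with Acta2 (-1.05), Tagln (-1.29) and the myosin light chain gene Myl9 (-1.90) called lower and Gata3 not called (0.92).

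The mural and mesangial list had other values in the other experiments. In C57BL/6J 4 of 14 genes were lower and 6 higher (median 0.70), in female cells 3 were lower and 7 higher (median 0.80), and in the female suspension 2 were lower and 4 higher (median 0.39), Acta2 among them at 1.94. The lower counts in C57BL/6J and female cells are near the shares over all genes there (27.4% and 21%). The interaction with C57BL/6J called 7 of 14 lower and 0 higher (5 of 10 lower over genes with UMIs in all cell libraries), and that with the female contrast 12 of 14 lower, the C57BL/6J values being -3.05 ± 0.48, adjusted p = 0.000802 for Myh11, -3.19 ± 0.32, adjusted p = 3.12e-05 for Myl9, a myosin light chain, and -2.63 ± 0.39, adjusted p = 0.000568 for Tagln. Pdgfrb was lower in all 4 contrasts, at -2.33 in C57BL/6J, -1.56 in female cells and -1.16 in the female suspension. Ren1, renin, made by the juxtaglomerular cells of the afferent arteriole, had 2.19, 6.39 and 12.2 CPM in male cells against 28.4, 30.7 and 33.0 CPM (log2 fold change -2.20 ± 0.36 (SE), adjusted p = 0.00069) and 2.09 in C57BL/6J, an interaction of -4.24 ± 0.91, adjusted p = 0.0054. The length-divided fold of Ren1 was -3.67.

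Most fibroblast genes were at 0 in the cells. Of 10 fibroblast genes 7 could be tested and all 7 were lower, 6 of them at 0 in all 3 cell libraries, and the median with 9 UMIs in place of zeros was -2.81. Those 6 pass the count filter only through the intact kidney, as did all 801 such genes, so their calls are no separate evidence. Col1a1, the main chain of type I collagen (chromosome 11, 94936224 to 94953042), was at 0 in every cell library against 38, 241 and 142 CPM in intact kidney, at least 22.4-fold lower. Bulk replicate 1 was the lowest and bulk replicate 2 the highest of a wide range. Col1a2, its partner chain, had UMIs in all 3, with 20.4, 18.2 and 21.7 CPM against 58.3, 238 and 131 CPM (log2 fold change -2.81 ± 0.54 (SE), adjusted p = 0.0015; length-divided -1.38, not called, while the other 6 were all called lower). Col3a1 was at least 16.9-fold lower, Col14a1 at least 10.2-fold, Pdgfra, the receptor that marks the cell type, at least 6.12-fold and the proteoglycan Dcn at least 2.40-fold. Fbln1 was at 0 in the cells, with an intact level (4.65, 5.51 and 4.9 CPM) too low to set against 9 UMIs. In the female suspension against intact kidney 9 of 10 fibroblast genes were lower (background 3.51%; median -1.40), Pdgfra at -3.72 ± 0.18, adjusted p = 8.95e-07 and Col1a1 at -1.64 ± 0.22, adjusted p = 0.0007. In C57BL/6J, without dissociation between the arms, 3 of 4 fibroblast genes tested were lower (-2.37 in the median), and in female cells 5 of 5 (-2.60). The interaction called 1 of 4 lower against C57BL/6J and 4 of 5 against females (8.42% and 21.8% over all genes). It has no size for genes at 0 in the male cells. Over genes with UMIs in all cell libraries 1 of 1 was lower against C57BL/6J (-1.70).

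Basement membrane and matrix genes, which several cell types make, were lower in 11 of 12 cases with a median of -2.40. Col4a1, of the type IV collagen common to all basement membranes, differed by -2.82, Col4a3 of the glomerular one by -2.39 and Hspg2, perlecan, by -2.80. Fn1, fibronectin, had 0, 7.86 and 0 CPM in cells against 93.8, 374 and 296 CPM in intact kidney, or -5.10 with 9 UMIs in place of zeros, the lowest of the list. Lamb2, a laminin chain, was the highest, at -0.28 (adjusted p = 0.341, edgeR). In the contrast that holds no dissociation 11 of 12 were lower too (C57BL/6J, median -2.39), the female suspension had 2 of 12 lower (median -0.32), and the interaction with C57BL/6J called 2 of 12 lower, Nid1 and Fn1, both at 0 in at least 1 male cell library, but 0 of 10 over genes with UMIs in all cell libraries (median 0.07). Female cells had 10 of 12 lower (median -1.64). The interaction with the female contrast called 6 of 12 lower (median -1.09), against 21.8% over all genes. Most are long transcripts, and with bulk counts divided by length the median was -1.30. The length-divided calls were 8 of 12 lower and 0 higher.

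Most immune genes that could be tested were higher in the cell sums, with the highest levels in cell replicate 1. An immune gene with few reads in intact kidney passes the count filter only through the cells. The counts higher among genes tested are therefore partly set by that filter. Of 7 macrophage genes tested 4 were higher and 1 lower (median 4.33), and the summed list had 803, 602 and 257 CPM in cells against 99.9, 107 and 102 CPM in intact kidney. The complement genes C1qa, C1qb and C1qc differed by 4.33, 4.88 and 5.47. C1qb had 248, 183 and 63.5 CPM against 4.18, 8.27 and 6.04 CPM, with cell replicate 3 the lowest of the cells and still above the bulk. Csf1r, the growth factor receptor of macrophages and the most abundant of the list in intact kidney, was lower (-1.21; length-divided -0.89, not called). It was also lower in the female suspension (-1.28, adjusted p = 4.74e-05, edgeR), where the other 9 macrophage genes were all higher (median of all 10, 1.11). The male median was 2.61 without cell replicate 1. It was 3.72 without bulk replicate 1 and 3.06 without bulk replicate 2. Of 4 monocyte and dendritic genes 3 were higher, with Ly6c2 at 5.16 and Plac8 at 4.51, and the transcription factor Zbtb46, which marks dendritic cells and some endothelium, was the lowest (-1.19 with 9 UMIs in place of zeros, not called). Length-divided, 4 of 7 macrophage genes (median 2.19) and 3 of 4 monocyte and dendritic genes were higher and none was lower. Macrophage genes were also higher in C57BL/6J cells against their suspension (6 of 10, 1 lower, median 2.66) and in female cells (9 of 10, 1 lower, median 3.68), and the interactions called 0 of 10 higher and, against females, 1 lower.

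All 6 B cell genes tested, of 10 in the list, were higher (median 4.53). Genes with few reads in intact kidney, such as Cd79a and Nkg7, pass the count filter only through the cells, which partly sets these counts. Without cell replicate 3 or any 1 bulk replicate 7 were called higher, with medians of 5.44 to 5.93. Cd79a, of the B cell receptor, had 67.7, 45.2 and 9.56 CPM in cells and 0.581, 0.394 and 0.377 CPM in intact kidney (log2 fold change 6.33 ± 0.77 (SE), adjusted p = 0.000123). Cell replicate 3 was the lowest of the cells and the groups did not overlap. The highest was Cd79b (6.64) and the lowest Ebf1 (1.29), a transcription factor that stromal cells use too. Igkc, the kappa light chain and the most abundant of the list in intact kidney, stood at 2.48, and at -0.64 with bulk counts divided by length. Nkg7, a granule protein of cytotoxic lymphocytes, had 105, 53.1 and 14.8 CPM against 0.349, 1.57 and 0.377 CPM (log2 fold change 6.62 ± 0.84 (SE), adjusted p = 0.000155). Of the T cell list only Trac, the receptor alpha constant region, could be tested, at 29.1, 16.2 and 0 CPM against 4.07, 3.94 and 3.02 CPM (adjusted p = 0.0534, edgeR), and cell replicate 3 was the one at 0. More T cell genes were called higher in other settings: 7 without cell replicate 3, 4 without any 1 of the bulk replicates 1 to 3, and 6 with no count filter. In the female suspension 7 of 10 B cell, 5 of 10 T cell and 3 of 5 NK cell genes were higher (background 1.83%). In C57BL/6J cells against their suspension 7 of 10, 7 of 10 and 4 of 5 were higher, and in female cells 5 of 6, 9 of 10 and 3 of 3. Length-divided, 5 of 6 B cell genes were higher (median 2.73) and Trac stood at -0.22, not called.

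Red cell transcripts had large folds. Of 5 genes 4, all hemoglobin chains, were higher (median 6.09). Hbb-bs, an adult beta globin, had 3107, 2497 and 3682 CPM in cells and 70.3, 69.3 and 71.9 CPM in intact kidney (log2 fold change 5.45 ± 0.20 (SE), adjusted p = 2.85e-07), and Hba-a1, an alpha globin, 1495, 955 and 1569 CPM against 17.9, 18.1 and 18.1 CPM. Hba-a1 and Hba-a2 are near-identical copies between which the counting of reads is uncertain. Alas2, the erythroid enzyme of heme synthesis, did not follow, at 5.10, 0 and 0 CPM against 8.25, 3.54 and 11.5 CPM. The female suspension had all 5 higher (median 2.39), and in C57BL/6J 3 were higher and 1 lower (median 2.1). The interaction with C57BL/6J called 4 of 5 higher, from 3.41 for Hbb-bs to 5.16 for Hbb-bt. Length-divided, the 4 hemoglobin genes were higher and Alas2 was called lower (-3.24), a fitted value that takes its zeros as they stand. Without that division Alas2 was not called and stood at -0.43 with 9 UMIs in place of zeros. Its intact level is too near that floor to size a loss. Female cells had 4 of 5 higher (median 4.57), and the interaction with the female contrast called 0 of 5, with Hbb-bs at 0.50, Hba-a1 at 1.54 and Hbb-bt at 1.36.

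Cell types at the edge of the organ left little to measure. Of 9 adipocyte genes 1 could be tested, Cfd (adipsin), at 0 in all 3 cell libraries against 4.30, 7.08 and 9.62 CPM, and in the female suspension Cfd fell by 7.55 on the log2 scale (adjusted p = 0.011, edgeR). Of 7 urothelial genes 1 could be tested, Psca, at 0 in the cells, and 5 of 7 were lower in the female suspension (median -2.84). Of 5 Schwann cell genes 2 could be tested and neither was called, Mbp (myelin basic protein) being at -0.18. No neutrophil or adrenal cortex gene could be tested. Of the proliferation list Mki67 and Top2a were at 0 in the cells and Pcna, which also serves DNA repair, was higher (1.32; length-divided 0.38, not called).

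Stress response genes, a list the study drew from C57BL/6J libraries of this series by their rise on warm dissociation, which makes its C57BL/6J counts no independent evidence, were mostly higher in the male cold cells. Of 14 tested 11 were higher and 0 lower (median 1.91). Jund, an AP-1 subunit, had 936, 883 and 854 CPM in cells and 105, 137 and 71.1 CPM in intact kidney (log2 fold change 3.11 ± 0.23 (SE), adjusted p = 7.19e-06), and the chaperone Hspa8 1107, 992 and 1178 CPM against 350.1, 262 and 292 CPM (log2 fold change 1.85 ± 0.15 (SE), adjusted p = 1.19e-05). Neither gene had overlapping groups. Hspb1, a small heat shock protein, was the highest (3.16), and Jun, the partner of Fos, stood at 0.77, under the fold threshold. Hsp90ab1, a chaperone and the most abundant of the list in intact kidney, was the lowest of those with UMIs in all 3 cell libraries (-0.41). Fos itself was at 0 in all 3. The bulk comparison of female suspension with intact kidney called 0 of 17 (median 0.02), while C57BL/6J cells against their own suspension, which share the dissociation, had 10 of 16 higher (median 1.31). Length-divided, 6 of 14 were higher and 1 was lower, Hsp90ab1 (-1.04), with a median of 0.81.

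Of 3 long noncoding RNAs of the list that could be tested Malat1 was higher, as given above. Kcnq1ot1, a very long imprinted transcript, was lower (-1.41; 2.93 with bulk counts divided by length) and Neat1, the scaffold of paraspeckles, stood at -0.91 (adjusted p = 0.00327, edgeR). Length-divided, all 3 were higher, Neat1 at 1.25. Clustered histone genes typically end in a stem loop in place of a poly(A) tail, and of 59 listed for the intact kidney or the cells only 15 were listed in the cells. Of the 57 histone genes listed for the intact kidney 13 were listed in the cells too, against 15546 of 25360 over all genes. Many of the unlisted histone genes were at low levels in intact kidney, and why they were not listed was not tested. The letters of the loop were searched in GENCODE M21 transcripts (GRCm38), on the transcript strand, as the stem GGCNNT, the loop TNTN and the closing stem ANNGCC. They are shown because they mark transcripts that can end without a poly(A) tail, and capitals mark the paired stem.
histone stem loop of 20 genes: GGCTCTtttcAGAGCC
histone stem loop of 6 genes: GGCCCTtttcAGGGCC
histone stem loop of 6 other genes: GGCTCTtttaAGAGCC
In all, 37 of the 59 genes held these letters, 11 of the 15 listed in the cells and 26 of the 44 not listed, against 0.653% of 21901 genes with a coding transcript. The letters did not always stand near the annotated end: 4884 bases followed them in Hist1h1d and 2445 in Hist4h4. The poly(A) signal AATAAA stood in the last 100 bases of 8 of the 15 and 4 of the 44, against 71.7% of the same coding genes. Of the 9 histone genes tested 5 were higher and 3 lower (median 1.57). The order reversed with bulk counts divided by length, where 5 were lower and 3 higher (median -1.48). The 3 called lower without that division were at 0 in all 3 cell libraries, so the count filter set their calls. Hist1h2bc (chromosome 13, 23684199 to 23692908) had 742, 918 and 734 CPM in cells and 42.4, 29.9 and 47.1 CPM in intact kidney (log2 fold change 4.30 ± 0.20 (SE), adjusted p = 6.75e-07), while Hist1h1c, a linker histone and the most abundant in intact kidney, stood at 0.08 (length-divided -1.48, called lower). Hist1h2al was the highest (4.84) and Hist4h4 the lowest, at 0 in all 3 cell libraries against 15.9, 11.8 and 16.2 CPM.

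Some genes expressed in intact kidney were missing from the cell tables altogether. The study counted cells and bulk reads on different gene references. A gene that the cell reference does not hold could not be listed whatever the cells contained, and which genes that applies to was not tested. Of 9476 genes with a mean of at least 10 CPM in intact kidney 135 (1.42%) were not listed in the cells. By GENCODE M21 biotype 26 were long noncoding, 22 pseudogenes, 17 protein coding, 2 clustered histones and 16 of other classes, and 52 names had no match there. The most abundant were Rn7sk, the 7SK RNA that holds back transcription elongation, at 694.9, 1691 and 974 CPM, and Rpph1, the RNA of ribonuclease P, at 365, 1152 and 377 CPM. Neither RNA is polyadenylated. Tug1, a polyadenylated long noncoding RNA, was also absent, with 93.0 CPM on average. The leading coding genes were Actc1, the cardiac actin (6.16, 54.7 and 40.5 CPM), Gm340, Prps1l3, Zfp276, the S3 transporter Slc22a13, the proton pump subunit Atp6v0c, Utp14b, Pcdhgc3 and the histones Hist1h1e and Hist1h4c.

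The share of coding genes seen in the cells followed their level. Of protein-coding genes at 1 to 2 CPM in intact kidney 17% were not listed in the cells, 59.9% were at 0 in all 3 libraries and 8.12% had UMIs in all 3. At 10 to 20 CPM 71.8% had UMIs in all 3, at 50 to 100 CPM 97.5%, and at 100 CPM or more 98.7%, where 11 of 1906 were at 0 in all 3. The 10 lower genes with the most extreme fitted values, which do not measure size for a group at 0, were all at 0 in the cells. Besides Col1a1 they included Ugt1a7c (54.6% of its exons shared with other Ugt1a genes), the glycerol acyltransferase gene Gpam (at least 23.9-fold lower, from 148, 148 and 154 CPM), the carboxylesterase gene Ces2c, Lnpep, the sodium-hydrogen exchanger of the brush border Slc9a3 (at least 20.1-fold, from 131, 132 and 114 CPM), Slc25a30, Pdxdc1 and Pdpr.

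**Figure D5:**
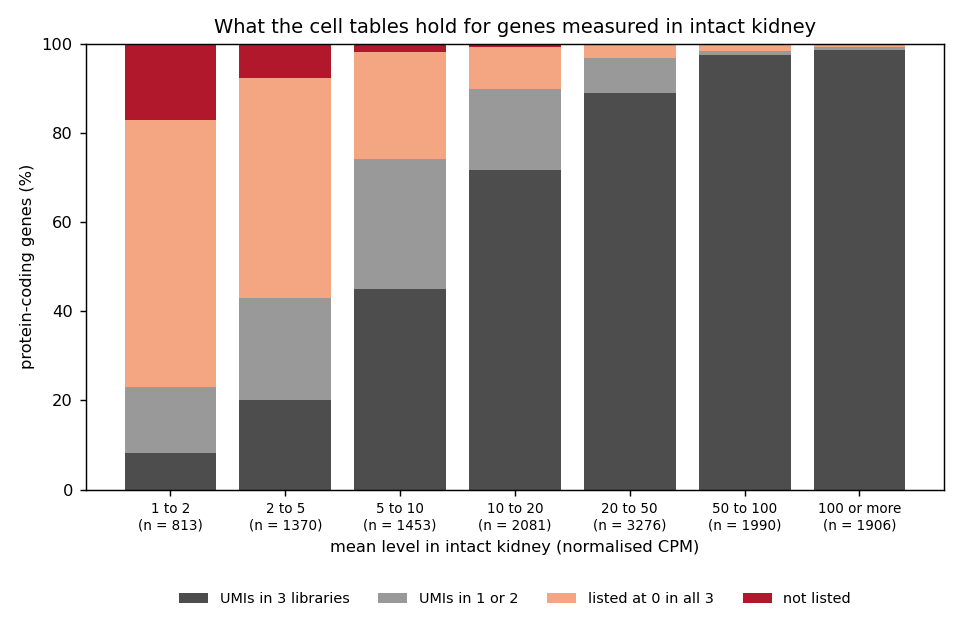
Share of protein-coding genes (vertical axis, percent) by their mean level in intact kidney (horizontal axis, bins of CPM) that were not listed for the male cells, listed at 0 in all 3 cell libraries, with UMIs in 1 or 2, or with UMIs in all 3. The share with UMIs in all 3 rises from 8.12% at 1 to 2 CPM to 98.7% at 100 CPM or more.

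Across all genes with UMIs in all 3 male cell libraries, the male calls were for the most part those of the C57BL/6J contrast, which shares no library with it. Of 2345 genes lower in male cells and tested in both, 1894 were lower in C57BL/6J too (80.8% of the male and 78.5% of the C57BL/6J calls), and of 2674 higher genes 2364 were higher in both (88.4% and 83.6%). The female suspension contrast, in which both arms are bulk RNA, shared 56 lower genes with the male contrast over the same genes, 2.39% of the male calls and 50.5% of the suspension's, and 43 higher genes, 1.61% and 86.0%. Another 20 genes were higher in male cells and lower in the suspension, and 2 the reverse. All genes tested in both include those at 0 in male cell libraries. Where all 3 are at 0, the count filter sets the lower call, which partly fixes the lower shares in advance. Over this larger set 193 lower genes (5.36% and 70.7%) and 44 higher genes (1.64% and 62.9%) were shared. Named after their values were seen, the lower ones included Apob (apolipoprotein B, -3.77 in the suspension), Cyp2a4 (a steroid hydroxylase, -3.51), Bcat1 (a branched-chain aminotransferase, -3.45), Akr1c14 (-3.25) and Ace (angiotensin-converting enzyme, -2.79), besides Pdgfra, Mep1b and Slc22a7. In C57BL/6J, without dissociation between the arms, Apob (-4.19), Cyp2a4 (-1.25), Akr1c14 (-2.41) and Ace (-2.47) were lower too. Apob, Bcat1 and Pdgfra were at 0 in all 3 male cell libraries. With 9 UMIs in place of zeros they stood at -3.99, -3.93 and -2.61 in males. The interaction with C57BL/6J did not call Cyp2a4, Akr1c14 or Ace, though over genes with UMIs in all cell libraries it called Cyp2a4 (-1.07, adjusted p = 0.0306, edgeR). The term with the female contrast called all 3 higher in males (1.05, 1.70 and 1.71). In female cells against intact kidney Cyp2a4, Akr1c14 and Ace stood at -3.60, -5.06 and -5.03. The higher ones included the hemoglobin genes, Cd79a, Nkg7 and the leukocyte genes Cd37, Cybb and Ctss. By fitted value, which has no size where a group is at 0, the most extreme differences between the male Balb/c and C57BL/6J contrasts included genes at 0 in male cell libraries. Gm10709, Grhl2, BC067074, Cacna1d and Gm12166 lay on the higher side and Nme3, Rpgrip1, Pdxdc1, Gm42418 and Nrp2 on the lower, and of these Gm10709, Gm12166 and Gm42418 had UMIs in all 3 male cell libraries.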

How the data were processed

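The values are gene counts. Per the labels and the study's methods, the authors made the UMI counts with Cell Ranger 2.1.1 (mm10) and used EmptyDrops to tell cells from empty droplets. They kept a gene only if at least 10 cells held it, and filtered cells by detected genes, mitochondrial share and ratio of UMIs to genes. Cells that failed those filters would be missing from the sums. Bulk reads were trimmed with Trim Galore, aligned with STAR 2.6.1a (GRCm38) and deposited as featureCounts read counts. The study identified duplicates in the bulk reads with Picard. Whether they were counted, and the strandedness, are not given in the sources used here. Other libraries of the series were not used here.

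UMIs were summed over all deposited barcodes per library, without removing doublets. Counts of non-mitochondrial genes in both tables were tested with edgeR 4.0.16 (filterByExpr, TMM, quasi-likelihood, Benjamini-Hochberg; SE is the log2 fold change divided by the square root of F), and differences between contrasts as an interaction term. P-values cover the spread among 3 libraries a group. On simulated counts, with 100 well-counted genes changed at each fold, the male test recovered 89% of 4-fold and 53% of 2-fold changes, with 7.19% false calls. Recovery was scored by adjusted p and direction without the fold threshold, and far fewer genes changed than in the real contrast. These rates therefore do not describe the calling rule used here. Genes were matched to GENCODE M21 by symbol for length and biotype.

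Members and lists were chosen with earlier results of these data known. Named were list members, the 10 largest calls each way at 10 CPM or more, the 10 most abundant and the 10 most abundant absent coding genes, and the 5 largest differences each way from C57BL/6J; a few of them are not reported here. Alternatives were RLE factors, no scaling factors, no count filter, DESeq2 1.42.0, limma 3.58.1 voom with quality weights, other thresholds, bulk counts divided by length, hemoglobin genes left out, each library left out, and, chosen after seeing the data, 9 UMIs for each 0 and only genes with UMIs in every cell library.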

Additional observations from a re-analysis of the deposited data

Results flagged for a closer look

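The contrast of cells with bulk RNA differed between experiments by the interaction term of edgeR. Between male Balb/c (cells against intact kidney) and C57BL/6J (cells against suspension), 1056 of 12541 genes had a lower log2 fold change in Balb/c and 423 a higher one, and between male and female Balb/c 2900 of 13312 were lower and 662 higher in males. Among genes with UMIs in all 6 cell libraries the counts were 482 lower and 438 higher against C57BL/6J and 807 lower and 843 higher against females. Strain, sex, age, chemistry, depth, bulk read length and the kind of bulk sample differ between the experiments and cannot be told apart.

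Podocyte genes stood on the higher side in Balb/c males against C57BL/6J: Podxl by 2.26 and Ptpro by 2.67 on the log2 scale. The S3 genes Slc22a7 (-2.85) and Mep1b (-2.17) stood on the lower side. So did the genes of contractile and renin cells, with Ren1 at -4.24, Tagln at -2.63, Myl9 at -3.19 and Myh11 at -3.05, and Plvap of fenestrated endothelium at -2.17, the 1 member of the 12 endothelial genes called by this term. The hemoglobin genes differed by 3.88 for Hba-a1, 3.41 for Hbb-bs and 5.16 for Hbb-bt, all higher in Balb/c males, while the term with female Balb/c called none of the 3 (1.54, 0.50 and 1.36). The chaperone gene Hspa8 differed by 1.31 and the kallikrein gene Klk1 by 1.19. The ribosomal protein gene Rpl24 (-3.41; 47.0% of its exonic bases shared with another gene) and Gm42418 (-10.19) stood on the lower side, Gm42418, whose exons overlap a gene on the other strand over 99.5% of their bases, being at -0.79 in Balb/c males and 9.47 in C57BL/6J. What sets these differences was not tested.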

How the results depend on the processing

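Directions of the list medians held in most settings (382 medians within the replicate spread, 112 outside it, 11 with another sign). The settings that change only a threshold leave every median as it was, so they count among the 382 by construction. The sign changed with bulk counts divided by exonic length for the thin limb (0.094), T cells (-0.22), long noncoding RNA (2.15) and clustered histones (-1.48), and for the genes Aqp3 (-0.0325), Egf (0.0142), Flt1 (0.0054), Ier3 (-0.0242), Igkc (-0.64), Kap (-1.05) and Kcnq1ot1 (2.93). In a fit of the whole table with 9 UMIs for each 0 it changed for the thin limb (0.52), urothelium (0.61), Fbln1 (0.41) and Psca (0.61). Schwann cells, with 2 genes, went to -0.25 with no scaling factors, -0.19 with no count filter, -0.19 with genes that have UMIs in all cell libraries and -0.0059 without male cell replicate 1, and reached 0.62 without male cell replicate 3. The proliferation median was 1.31 over genes with UMIs in all cell libraries. Among named genes, 3613 values kept their call, 85 gained and 149 lost one, and 9 changed sign. Beyond that scaling, the cause of these changes was not tested.

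At a log2 fold change of 2, 1698 genes were lower and 1541 higher. Over genes with UMIs in all 3 cell libraries 2378 were lower. The differences from C57BL/6J came to 648 lower and 85 higher at a log2 difference of 2, 1034 higher by adjusted p alone and 482 lower over genes with UMIs in all cell libraries. Those from female Balb/c came to 1289 higher without scaling factors, 1873 lower and 131 higher at a difference of 2, 1581 higher by adjusted p alone, and 807 lower over genes with UMIs in all cell libraries. Absent genes numbered 335 at 5 CPM and 52 at 20 CPM. Leaving out 1 library at a time gave 3325 to 4037 lower and 2621 to 2983 higher genes, 935 to 1356 lower and 370 to 452 higher against C57BL/6J, 2401 to 3085 and 637 to 959 against females, and 133 to 141 absent genes.

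Lists of few or sparse genes depended on single libraries: the B cell median came to between 5.44 and 5.93 without any 1 of bulk replicates 1 to 3 or cell replicate 3, that of the thin limb to -0.25 without cell replicate 2, that of endothelium to -0.78 without cell replicate 1 and -0.32 without cell replicate 2, that of lymphatic endothelium to -9.42 without cell replicate 1, that of macrophages to 2.61 without cell replicate 1, and that of T cells to 1.38 without cell replicate 1 and 6.61 without cell replicate 3, with 0 and 7 genes called. No paired analysis was possible between cells and intact kidney because the replicate numbers follow the order of deposit. The C57BL/6J cells and suspension RNA came from the same dissociated kidneys, as the study states. Their contrast and the interaction built on it nevertheless treated them as independent groups, without pairing. Depth limits the low end: a 0 in the cells stands for up to 4.42 to 7.82 CPM, so losses of genes near that level could not be sized. Mitochondrial genes were not compared, and the male cell libraries were shallower (1362810 to 2573720 UMIs) than the C57BL/6J (5309551 to 8051722) and female ones (16622862 to 27869324).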
